A study of Mus musculus with 22 samples.

Results

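The cytosolic ribosome carries its RNA on a set of small, mostly basic proteins, and the mRNAs of those proteins are described here across the ileum and colon of young and aged flox control and SIRT1 iKO mice. The genes were taken by symbol from the array annotation: names beginning Rpl or Rps followed by a digit, the stalk proteins Rplp0, Rplp1 and Rplp2, Rpsa and Fau, with the S6 kinase names (Rps6k, 10 names) left out. This gave 83 of the 27962 names on the array, read by 138 of its 41174 probes, and each gene was represented by its brightest probe. By role, 42 were large subunit proteins, 32 small subunit proteins, 3 stalk proteins and 5 paralogs of a ribosomal protein (Rpl3l, Rpl7l1, Rpl22l1, Rpl36al and Rps27l). The last name, Rps19bp1, is caught by its spelling but encodes a nucleolar SIRT1 regulator and not a ribosomal protein. Of the 83, 82 passed the filter on dim probes in the ileum and 83 in the colon. The exception in the ileum was Rpl3l, the paralog of Rpl3 made in striated muscle, which was well above background on 8 of 22 arrays.

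The mice were male C57BL/6 on a chow diet, and total RNA came from tissue labelled ileum or colon. The groups were young ileum (6 to 8 weeks) from flox controls (n = 4) and SIRT1 iKO mice (n = 4), aged ileum (24 months) from flox (n = 3) and iKO mice (n = 4), and aged colon from flox (n = 3) and iKO mice (n = 4). As the term is generally used, a flox control carries the target allele flanked by loxP sites without Cre; the labels do not spell out iKO and name neither the Cre driver nor the deleted part of Sirt1. There was no young colon. The design text counts mice per group, but nothing in the labels ties an array to its mouse, so p-values measure the spread between these samples, which may be technical. In bulk tissue, fewer cells of a type and less RNA per cell cannot be told apart.

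Ribosomal protein mRNAs are among the most abundant in any growing cell, and each subunit needs its proteins in nearly equal numbers. Vertebrates match that supply mainly at translation: the mRNAs begin with a C followed by a run of pyrimidines, the terminal oligopyrimidine (TOP) motif, through which mTORC1 and LARP1 switch their translation on and off together. The gut epithelium renews itself within days and makes ribosomes steadily in its crypts, and free RPL5 and RPL11, which assemble with 5S rRNA, can bind MDM2 and stabilise p53 when assembly fails.

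The bases around the annotated starts of 8 genes are given to show a pyrimidine run near the start in members whose values follow, and 1 member without such a run. Each line holds 30 bases, 15 before and 15 from the start in RefSeq's GRCm38.p6 annotation, 5′ to 3′ on the gene's strand, and capitals mark the longest run of C and T that begins with C and has at least 8 bases.
Rps6: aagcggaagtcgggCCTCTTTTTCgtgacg
Rplp2: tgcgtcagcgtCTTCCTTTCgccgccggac
Rps24: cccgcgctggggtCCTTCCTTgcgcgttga
Rps26: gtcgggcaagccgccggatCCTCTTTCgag
Rps27: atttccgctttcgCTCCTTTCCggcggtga
Rps27l: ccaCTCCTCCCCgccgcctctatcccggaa
Rpl22l1: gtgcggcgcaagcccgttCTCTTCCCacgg
Rpl41: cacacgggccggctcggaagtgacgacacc
The windows lay at chr4:86857353-86857382 (minus strand) for Rps6, chr7:141447636-141447665 (plus) for Rplp2, chr14:24490663-24490692 (plus) for Rps24 and chr10:128626492-128626521 (minus) for Rps26. They lay at chr3:90213634-90213663 (minus) for Rps27, chr9:66946071-66946100 (plus) for Rps27l, chr3:28805493-28805522 (plus) for Rpl22l1 and chr10:128549154-128549183 (minus) for Rpl41. Rpl41 held no such run in this window. Rps24 and Rps27l each have 2 annotated starts in the table; the start with a run is shown, and the other holds none. Of the 83 names, 62 matched the RefSeq table, with 73 start sites. A run was present at 26 of these 73 sites (35.6%), against 3041 of all 32851 sites (9.26%) and 8 of 75 sites (10.7%) of mitochondrial ribosomal protein genes. On the opposite strand the shares were 4.11%, 10.3% and 9.33%. The marked run of Rps27l lies wholly before the annotated start, and those of Rps26 and Rpl22l1 begin after it. A match describes these letters and is not a mapped TOP start.

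Each array was read as the log2 of the processed signal minus that of the array's own 75th percentile, so a level of 7 is a signal 7 doublings above that percentile. A probe's level depends on its sequence, and levels are therefore compared between arrays and not between genes. The 75th percentile of the processed signal was 918 to 1115 in young ileum, 1132 to 1231 in aged ileum and 1425 to 1751 in colon, and 49.8 to 79.7% of probes were well above background. Slides 1 to 4 held ileum and slides 5 to 8 held colon, so tissue and array run cannot be told apart. The young arrays were at positions 1 and 2 of their slides and the aged ileum arrays at positions 3 and 4, so age and position cannot be told apart either. Sirt1, the deleted gene, read 0.60 to 1.19 in young flox and 0.64 to 0.75 in young iKO ileum, 0.59 to 1.09 in aged flox and 0.28 to 0.39 in aged iKO ileum, and 0.76 to 0.79 in flox and 0.34 to 0.65 in iKO colon. The groups did not overlap at 24 months in either tissue and overlapped in the young, and none of the 3 differences passed (limma adjusted p = 0.999, 0.177 and 0.623).

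On 2 aged ileum arrays, markers of colonic epithelium stood near their colon level. The summed level of 6 such markers was 8.65 in aged flox replicate 1 and 8.14 in aged iKO replicate 2, against 2.66 to 3.42 on the other aged ileum arrays and 8.87 to 9.58 in colon. Car1, a carbonic anhydrase of colonic epithelium, read 8.18 and 7.79 on these arrays and at most -2.14 on the other aged ileum arrays. The summed level of 6 ileal enterocyte markers was 6.90 and 6.68 on them, 7.47 to 8.20 on the other aged ileum arrays and 4.39 to 5.32 in colon. The counts of called genes, the medians of the set and the interaction terms are given with and without these arrays; single-gene values and counts for which no second value is stated include them.

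The median level of the ribosomal protein mRNAs lay between 6.58 and 7.17 on all 22 arrays. It was 6.72, 6.78, 6.87 and 6.96 on the young flox arrays and 6.86 to 7.17 on the 4 young iKO arrays. In aged ileum it was 6.58, 6.65 and 6.66 in flox and 6.74, 6.84, 6.74 and 6.77 in iKO. In colon it was 6.66, 6.70 and 6.71 in flox and 6.76, 6.77, 6.91 and 6.60 in iKO. Young and aged arrays did not overlap within either genotype, the aged ones being lower, and flox and iKO arrays overlapped in the young ileum and in the colon but not in the aged ileum. The spread between replicates was small: the median within-group SD was 0.10 over the 83 genes, against 0.19 over the 13694 genes well above background on every array, and 79 of the 83 had an SD under 0.2. The exceptions were Rpl3l (SD 0.88), which is close to background, Rpl21 (0.33), Rpl19 (0.27, with a low colon iKO array at 5.76 against 6.90, 7.02 and 7.02) and Rps19 (0.24). Saturated spots were found in colon alone, on 5 arrays for Rplp1, 2 for Rps23 and 1 for Rpl7a.

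**Figure D1:**
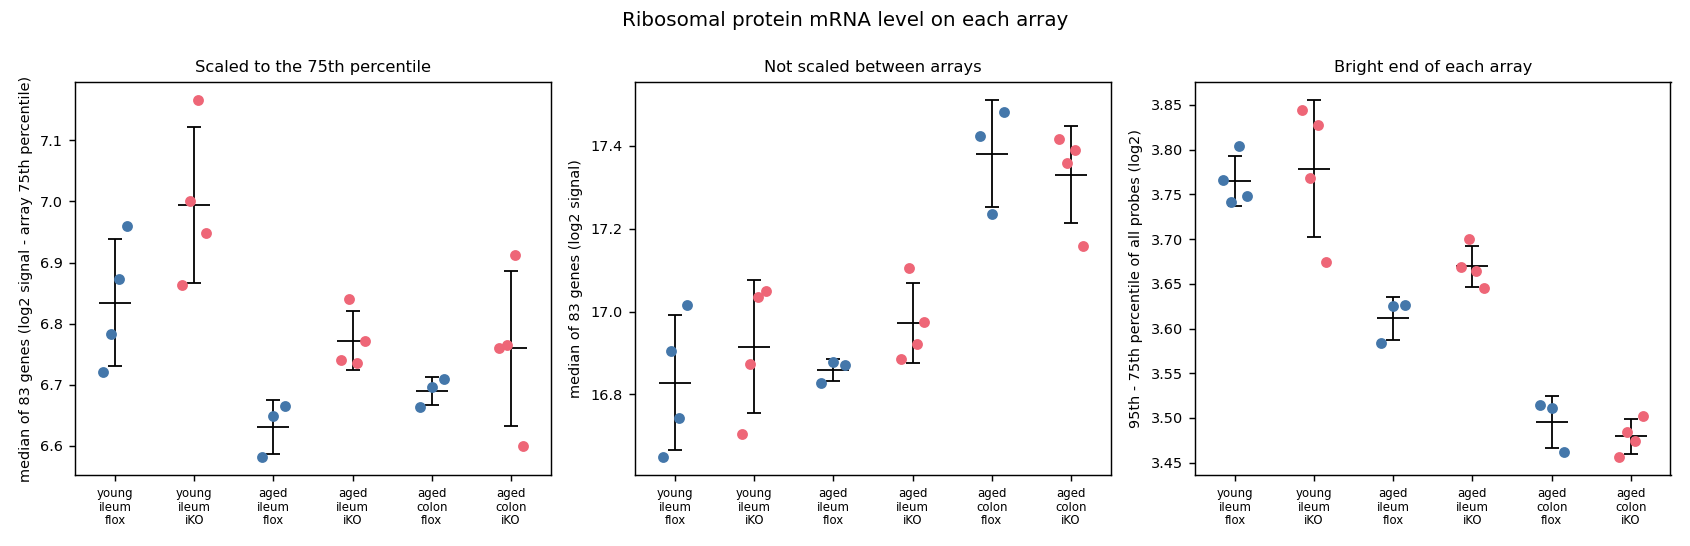
Median level of the 83 ribosomal protein genes on each of the 22 arrays, by group, scaled to the 75th percentile of the array (left) and not scaled (middle, log2 signal), with the gap between the 95th and 75th percentiles of all probes (right); points are arrays (blue flox, red iKO) and bars are group means with SD. With scaling, the aged ileum arrays (6.58 to 6.84) lie below the young arrays of their own genotype; without it, the group means of the ileum lie between 16.83 and 16.97.

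Within groups the genes moved together from array to array. With group means removed, 71 of the 83 correlated above 0.5 with the median of the other members across the 22 arrays (median r = 0.73), while the median over 13527 other genes was 0.06. The arrays share their slide, labelling and scaling, so this is a description of the arrays as much as of the tissue. Rps24 (0.93), Rpl23a (0.93) and Rpl36a (0.92) followed the set most closely. The least like it were Rps19bp1 (-0.14), which is not a ribosomal protein, Rpl7l1 (-0.10), a paralog of Rpl7 with a role in ribosome assembly, and Rpl21 (-0.04). The paralogs Rpl3l (0.14) and Rpl36al (0.20) also stood low. Among genes outside the set, the 5 most similar were 3 loci without a gene symbol in the reference (r = 0.94, 0.92 and 0.92), Eef1b2 (0.89), a subunit of the elongation factor that recharges eEF1A, and Naca (0.88), a chaperone subunit that sits at the ribosome's exit tunnel. The probe of the first locus shares a run of 20 bases with the Rpl32 probe, so its signal may be partly that of Rpl32. The longest runs shared by the probes of the other 4 were 9 to 12 bases. Each was compared with the brightest probe of each member and not with transcripts, so other shared signal was not tested.

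No ribosomal protein mRNA was called as changed between iKO and flox mice. In young ileum 0 of 82 passed in limma at an adjusted p under 0.05 (0.0449% of 15579 genes did), in aged ileum 0 of 82 (0.167%), and in aged colon 0 of 83 (0.111% of 19749). At an unadjusted p under 0.05 there was 1 in young ileum, 1 in aged ileum and 0 in colon, against 643, 1862 and 1424 of all genes. Most unadjusted differences were above 0. The median over the set was 0.10 in young ileum (77 of 82 positive), 0.11 in aged ileum (76 of 82) and 0.05 in colon (62 of 83), while the median of all genes was -0.01, 0.02 and -0.01. These medians were close to the spread of arrays: the SD of the set's median between replicates was 0.09, and within single slides the median difference was 0.18, 0.06, -0.03 and 0.21 in young ileum, 0.13 in aged ileum, and 0.15, 0.08 and -0.06 in colon. Without scaling between arrays it was 0.03, 0.08 and -0.07, so its direction in the colon depended on the scaling. Without the 2 ileum arrays that carried colonic markers, the aged ileum median was 0.05 (64 of 82 positive) and 0 genes passed.

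Markers of other cells leaned with genotype as well, and 0 of the markers whose sign is given here passed. In young ileum all 9 tested B and plasma cell markers and all 6 tested T cell markers had positive differences, with summed levels of 5.82 to 7.01 in flox and 6.76 to 7.28 in iKO for the first and 1.10 to 2.84 and 2.32 to 2.99 for the second. In aged ileum all 19 markers of cycling cells were positive (median 0.25; summed level 6.84 to 7.10 in flox and 7.05 to 7.52 in iKO). All 9 fibroblast markers (6.14 to 6.54 and 5.58 to 6.27) and all 8 smooth muscle markers (7.89 to 8.04 and 7.39 to 8.02) were negative there. These 3 lists kept their signs without the 2 arrays with colonic markers, with medians of 0.17, -0.33 and -0.26. In colon all 5 goblet cell markers were positive (9.42 to 9.78 in flox and 10.01 to 10.14 in iKO). Paneth cell markers summed to 2.02 to 3.82 in flox and 3.83 to 7.40 in iKO colon. Those of fat and pancreas summed to 3.83 to 6.65 in flox and 2.48 to 7.07 in iKO young ileum. Calls in these lists are not given here. The part of these cells in the set's direction was not tested.

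Among single genes, in young ileum the smallest p belonged to Rps4x, the X-linked copy of the S4 protein, at 7.34, 7.60, 7.74 and 7.16 in flox and 7.66, 7.76, 7.85 and 7.68 in iKO. The groups overlapped, and the difference was 0.28 ± 0.11 (SE, adjusted p = 0.999 in limma). Rps27a, a ubiquitin fusion, and Rps23, of the decoding centre, followed at 0.16 ± 0.08 and 0.15 ± 0.07. On the lower side the smallest p values belonged to Rps19bp1 (-0.13), Rpl7l1 (-0.06) and Rpl29 (-0.06). In aged ileum 24 of the 82 read higher on every iKO array than on every flox array, which 8.36% of all genes did. Without the 2 arrays with colonic markers this held for 25 of the 82 and for 16.7% of all genes. Rps27l had the smallest p there, at 5.96, 5.99 and 6.14 in flox and 6.09, 6.43, 6.29 and 6.38 in iKO, a difference of 0.27 ± 0.11 (adjusted p = 0.369), or 0.19 ± 0.14 without those arrays. Rpl36 and Rpl39, small proteins of the large subunit, differed by 0.20 each (adjusted p = 0.437 and 0.44), and on the lower side the smallest p values belonged to Rpl7l1 (-0.11), Rpl7a (-0.05) and Rpl4 (-0.06). In colon the smallest p on the higher side belonged to Rps18 (0.17, adjusted p = 0.836), Rps24 (0.13) and Rpl26 (0.12), and on the lower side to Rpl3l (-0.53), Rps19bp1 (-0.16) and Rpl21 (-0.45).

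Of the genes named for their roles, none passed for genotype. Rps6, the substrate of the S6 kinases, differed by 0.19 in young ileum, 0.11 in aged ileum and 0.06 in colon. Rpl5 differed by 0.08, 0.02 and 0.02, and Rpl11 by 0.11, 0.12 and 0.01. The stalk proteins, which recruit the translation factors, differed by 0.08, 0.09 and 0.04 for Rplp0, 0.10, 0.05 and 0.10 for Rplp1, and 0.11, 0.16 and 0.01 for Rplp2. Rpl22l1 differed by 0.14, 0.16 and 0.10, and Rpl36al by 0.05, 0.19 and 0.06. The median 95% interval, not adjusted for the number of genes, reached 0.19 either side of the difference in young ileum, 0.20 in aged ileum and 0.23 in colon. A larger difference need not pass after adjustment, as that of Rps27l in aged ileum did not. Array position coincided with genotype in the young ileum and in the colon, where they cannot be told apart.

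**Figure D2:**
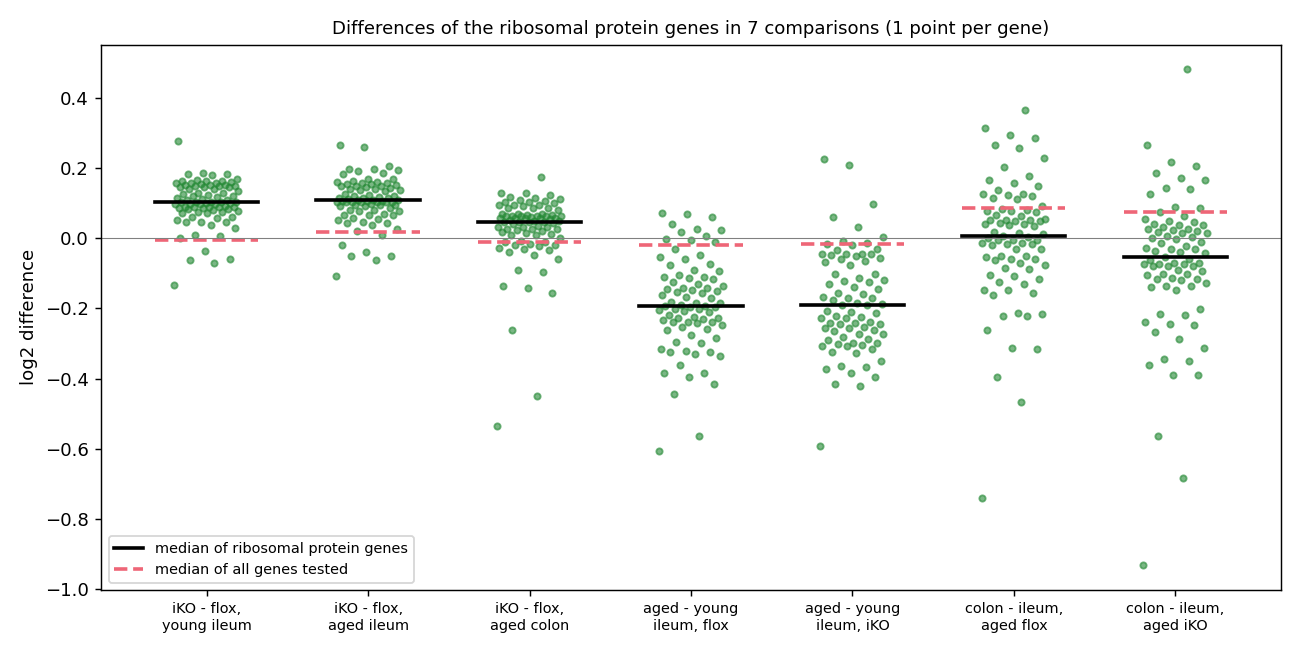
Log2 difference of each ribosomal protein gene in 7 comparisons (points), with the median of the set (black line) and the median of all tested genes (dashed red line). In the 3 genotype comparisons the set's median is 0.10, 0.11 and 0.05 with no called gene; in ageing it is -0.19 in flox and -0.19 in iKO; in colon against ileum it is 0.01 and -0.05.

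With age, a group of ribosomal protein mRNAs fell in the ileum of both genotypes, relative to the array's 75th percentile. In flox mice 9 of 82 fell and 0 rose (limma, adjusted p under 0.05); 8.55% of 15579 genes were called, 5.37% as lower and 3.18% as higher. In iKO mice 19 of 82 fell and 0 rose; 10.7% of all genes were called, 5.57% as lower and 5.15% as higher. In iKO the share that fell was 23.2% of the set. The median over the set was -0.19 in each genotype, with 74 and 76 of 82 below 0, while the median of all genes was -0.02 in each. At an unadjusted p under 0.05 there were 39 and 44. In flox 34 members, and in iKO 39, read lower on every aged array than on every young array of that genotype, as 15.4% and 10.5% of all genes did. The 9 genes called in flox were all among the 19 called in iKO (100% of the first and 47.4% of the second). These comparisons use different arrays but share a fit and its spread per gene, and age and position coincide in both. The overlap is therefore not a replication in separate data.

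The paralogs Rpl22l1 and Rps27l fell most. Rpl22l1, whose transcript is held down by its parent Rpl22, read 5.78, 5.75, 6.02 and 6.18 in young flox and 5.29, 5.32 and 5.37 in aged flox, and 5.89, 6.09, 6.32 and 6.01 in young iKO and 5.40, 5.59, 5.48 and 5.47 in aged iKO. Young and aged arrays did not overlap, and the aged level was 65.7% of the young in flox (-0.61 ± 0.12, adjusted p = 0.0102) and 66.3% in iKO (-0.59 ± 0.11, adjusted p = 0.00624). Rps27l, a p53-induced relative of Rps27, read 6.58, 6.56, 6.61 and 6.63 in young flox and 5.96, 5.99 and 6.14 in aged flox, and 6.66, 6.63, 7.01 and 6.57 in young iKO and 6.09, 6.43, 6.29 and 6.38 in aged iKO. It fell to 67.7% in flox (-0.56 ± 0.11, adjusted p = 0.011) and to 74.7% in iKO (-0.42 ± 0.10, adjusted p = 0.0229). The probes of these paralogs and of their parents share no run longer than 7 bases of 60. Probes were compared with probes and not with transcripts, so whether a paralog's probe also reads its parent was not tested. The parents fell as well in part: Rpl22 by 0.39 ± 0.09 in flox and 0.37 ± 0.08 in iKO, and Rps27 by 0.35 ± 0.08 in iKO. Of the other paralogs, Rpl36al differed by -0.38 in flox (adjusted p = 0.0715) and -0.24 in iKO (adjusted p = 0.199), and Rpl7l1 by 0.02 and -0.03.

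Among large subunit proteins, 4 of 42 fell in flox and 9 of 42 in iKO, with medians of -0.16 and -0.17. Rpl41, the smallest ribosomal protein, showed the fall with the smallest p in both. It read 8.16, 8.11, 8.27 and 8.20 in young flox and 7.80, 7.74 and 7.77 in aged flox, and 8.33, 8.34, 8.41 and 8.18 in young iKO and 7.90, 8.01, 7.92 and 7.84 in aged iKO. Young and aged arrays did not overlap, and the difference was -0.41 ± 0.08 in flox (adjusted p = 0.00796) and -0.40 ± 0.07 in iKO (adjusted p = 0.00545). Rpl11 of the 5S particle read 7.98 to 8.09 in young flox and 7.64 to 7.76 in aged flox, and 7.98 to 8.29 in young iKO and 7.76 to 7.88 in aged iKO. Its brightest probe fell by 0.34 ± 0.08 and 0.32 ± 0.08. Its partner Rpl5 did not pass, at -0.13 (adjusted p = 0.366) and -0.19 (adjusted p = 0.133). Rpl36a fell in both, by 0.38 and 0.31, and Rpl30, Rpl7a, Rpl39, Rpl7 and Rpl38 passed in iKO, with falls between 0.26 and 0.37.

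Among small subunit proteins, 3 of 32 fell in flox and 8 of 32 in iKO, with medians of -0.20 and -0.22. Rps27a, which also supplies ubiquitin, fell by 0.36 ± 0.08 in each genotype. It read 7.13 to 7.30 in young flox and 6.78 to 6.92 in aged flox, and 7.24 to 7.50 in young iKO and 6.94 to 7.05 in aged iKO, without overlap. Rps14, on the platform of the small subunit, fell by 0.32 ± 0.09 and 0.39 ± 0.08, and Rps24, mutated in some cases of Diamond-Blackfan anaemia, by 0.30 ± 0.09 and 0.29 ± 0.08. Rps27, Rps20, Rps3 and Rps23 also passed in iKO, with falls between 0.29 and 0.35. Others of this subunit did not pass: Rps6 read 5.69 to 5.86 in young flox and 5.71 to 5.91 in aged flox, a difference of 0.06 ± 0.10 (adjusted p = 0.74), with -0.02 in iKO, and Rps26 differed by 0.07 ± 0.11 and 0.10 ± 0.10. Of the windows printed above, those of Rpl22l1, Rps27l and Rps24 (the last 2 at 1 of their 2 starts) hold a pyrimidine run, and these genes fell in both genotypes. Rps27 holds a run and passed in iKO alone, and Rps6, Rps26 and Rplp2 hold one and did not pass. Rpl41 holds none and fell in both. Whether the run goes with the fall was not tested.

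Of the 3 stalk proteins 0 passed. Rplp0 differed by -0.01 and 0.00, Rplp1 by -0.21 (adjusted p = 0.159) and -0.26 (adjusted p = 0.0616), and Rplp2 by -0.20 (adjusted p = 0.12) and -0.16 (adjusted p = 0.18). The probe named Rplp0 has no gene symbol in the reference, and Arbp, an older name of Rplp0, is spelled outside the rule. Arbp read 8.48 to 8.86 in young flox and 8.27 to 8.53 in aged flox. In iKO it read 8.65 to 8.83 in young and 8.37 to 8.57 in aged ileum, without overlap. The values for Rplp0 therefore belong to its probe. On the higher side nothing passed, and the smallest p values there belonged to Rps26, Rps6 and Rpl29 (0.07) in flox and to Rpl29 (0.22 ± 0.11, adjusted p = 0.226), Rpl21 (0.21) and Rps26 (0.10) in iKO. A gene spelled outside the rule, Rps4l, a relative of Rps4x listed on this array as 1110033J19Rik, read 3.80 to 4.41 in young flox and 3.51 to 3.82 in young iKO ileum, -0.64 to -0.38 and -0.88 to -0.66 in aged ileum, and -2.02 to -1.26 in colon.

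**Figure D3:**
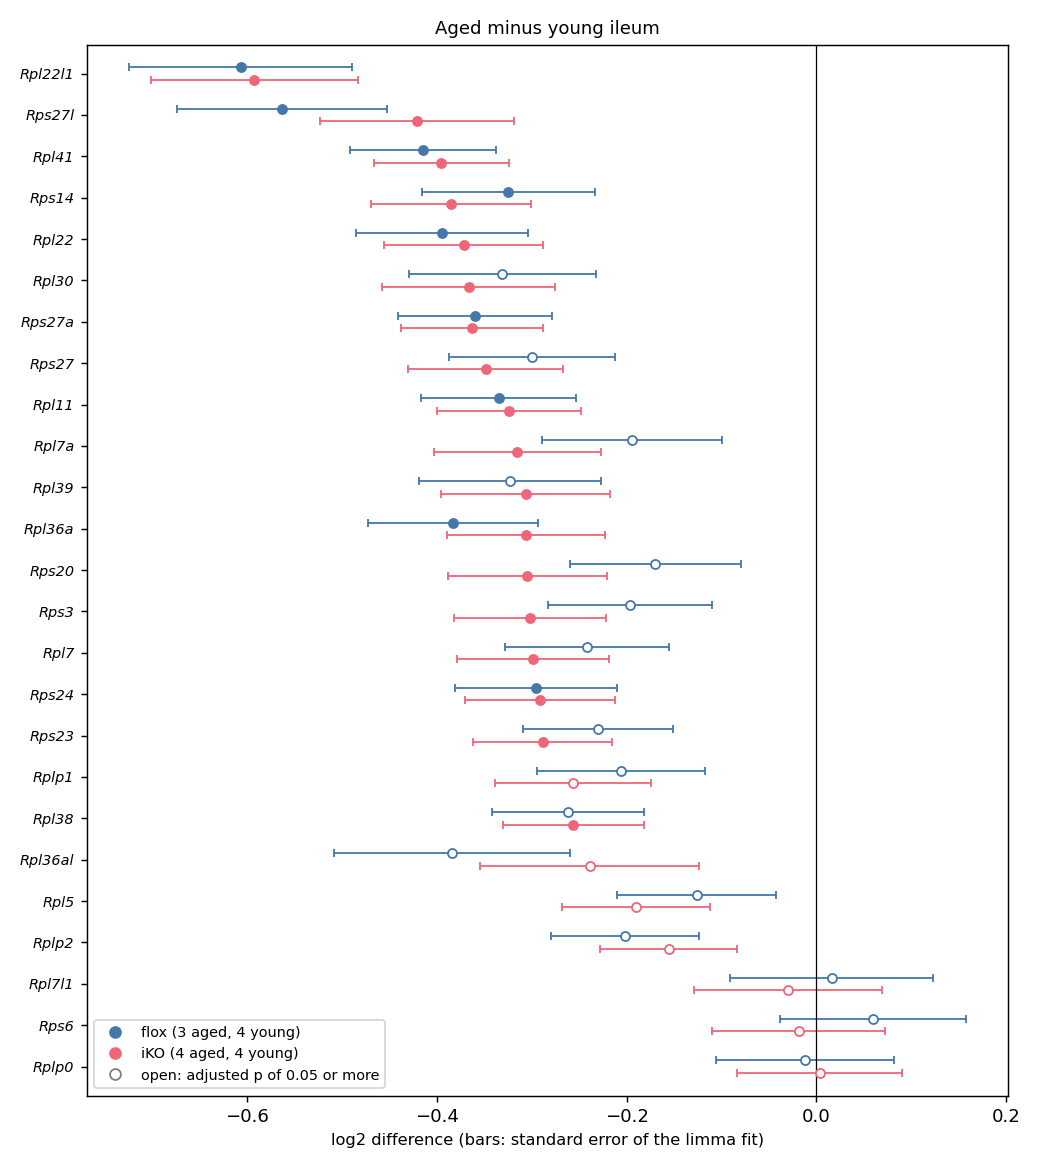
Aged minus young ileum (log2 difference with its standard error) for the ribosomal protein genes named for ageing, in flox and in iKO mice; filled points passed at an adjusted p under 0.05 in limma. Rpl22l1 lies furthest to the left (-0.61 and -0.59), and Rplp0 and Rps6 lie at about 0.

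**Figure D4:**
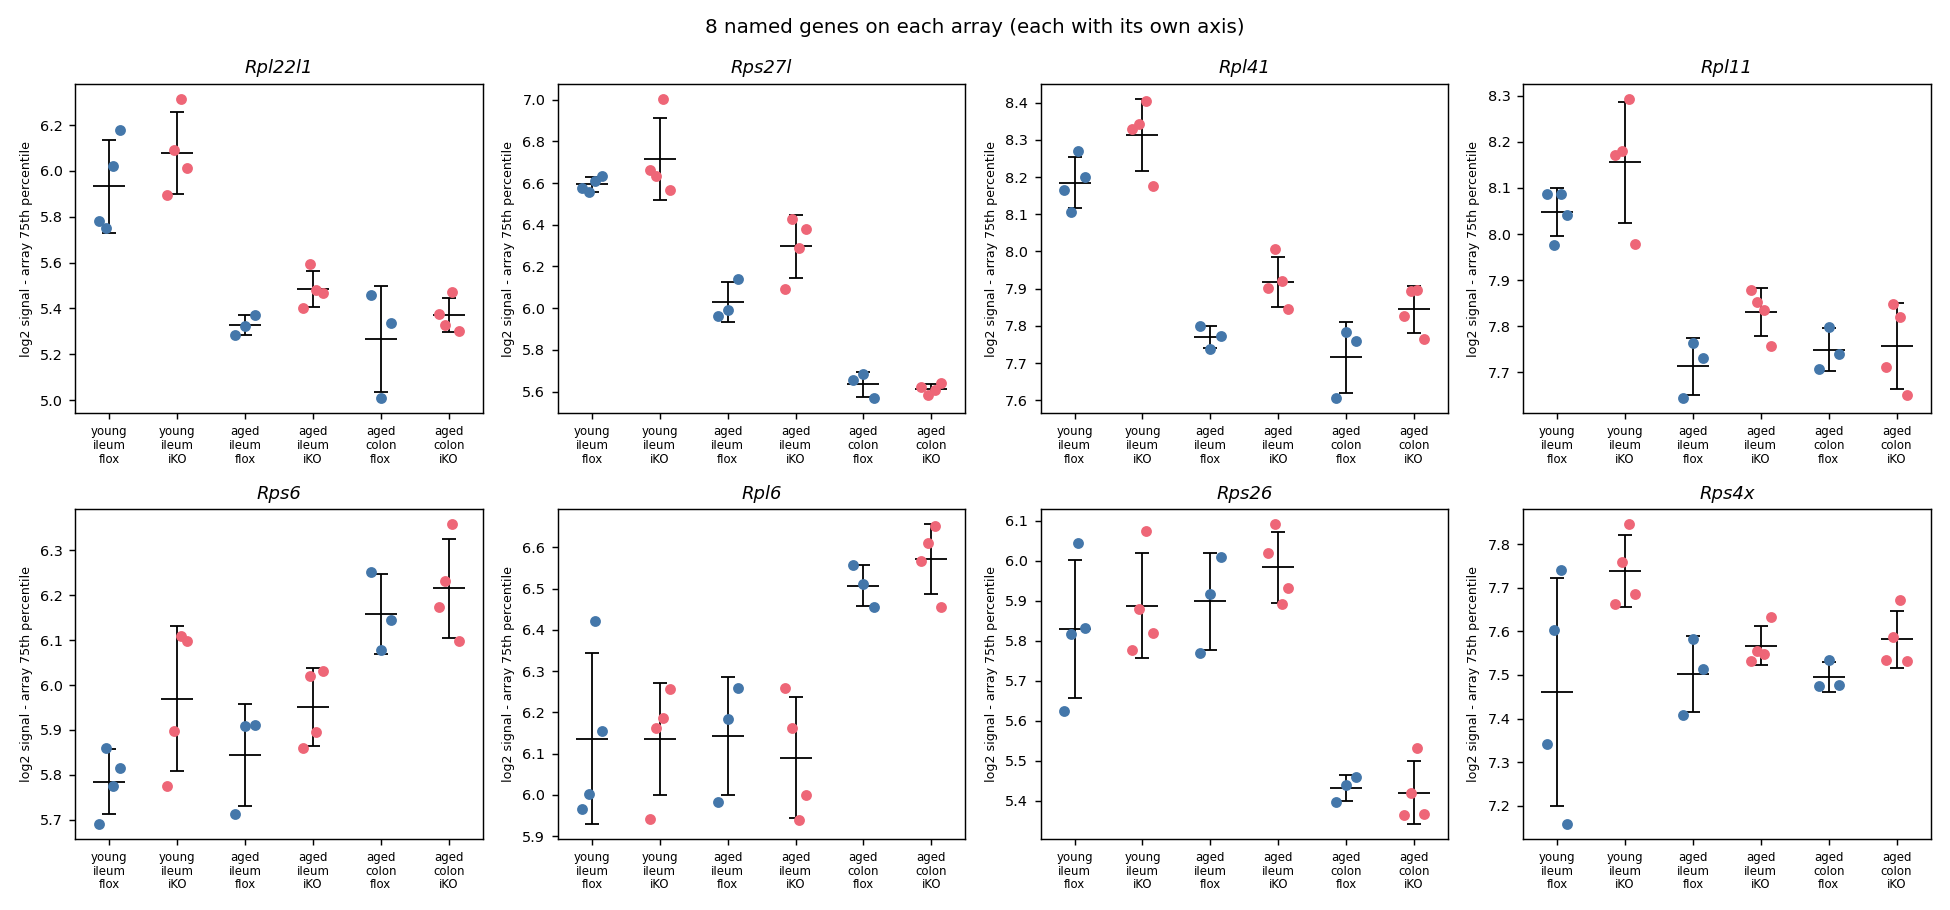
Level of 8 named genes on each of the 22 arrays by group (log2 signal minus the array's 75th percentile, each gene on its own axis; points are arrays, blue flox and red iKO, and bars are group means with SD). Rpl22l1, Rps27l and Rpl41 separate young from aged ileum, and Rps6 and Rpl6 are higher in colon than in aged ileum of the same genotype.

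The number of falls called depended on the scaling. The mean unscaled level of the set was 16.83 and 16.92 in young flox and iKO and 16.86 and 16.97 in aged, so that without scaling its median difference was 0.04 and 0.09, and 0 members were called in flox and 4 in iKO, those 4 higher. Of all genes, 11.9% were then called higher in flox and 26.7% in iKO. Left unscaled, the median of all genes stood 0.23 and 0.28 higher relative to its scaled value. Scaling to a percentile or not at all moves every gene of an array alike, so the set's distance from the median of all genes (-0.17 in each genotype) is the same under these settings by construction. Under quantile normalization the set's median was 0.03 and 0.02, against 0.01 and 0.02 for all genes, and 1 gene passed in each genotype, Rps27l in flox (-0.35, adjusted p = 0.0345) and Rpl22l1 in iKO (-0.41, adjusted p = 0.0285). In that setting 2.80% of all genes were called lower in flox and 3.67% in iKO. Quantile normalization gives every array the same distribution, and the upper part of that distribution differed with age: the gap between the 95th and 75th percentiles of the array was 3.67 to 3.84 in young, 3.58 to 3.63 in aged flox and 3.65 to 3.70 in aged iKO ileum, a mean difference of -0.15 in flox and -0.11 in iKO. The set's median level lay above the 99th percentile on every array. The gap between the 99th and 75th percentiles was 6.09 to 6.28 in young, 5.90 to 6.00 in aged flox and 6.00 to 6.09 in aged iKO ileum. Its mean difference with age was -0.20 in flox and -0.17 in iKO, and the part of this in the set's fall was not tested. Within single slides the set's median difference was -0.10 and -0.30 in flox, and -0.23, -0.03 and -0.35 in iKO.

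Without the 2 aged ileum arrays that carried colonic markers, 3 members fell in flox and 10 in iKO, 0 rose in each, and the median of the set was -0.14 and -0.20. By role, 2 paralogs, 1 large subunit and 0 small subunit genes fell in flox, and 2, 5 and 3 in iKO. The 3 in flox were Rpl22l1 (-0.59, adjusted p = 0.0463), Rps27l (-0.53, adjusted p = 0.0477) and Rpl41 (-0.43, adjusted p = 0.0301), and these passed in iKO as well (adjusted p = 0.0177, 0.0359 and 0.0141). Leaving out these arrays left 2 aged flox arrays, and the share of all genes called in this setting is not given here. In it, 34 of 82 members in flox and 53 in iKO read lower on every aged array than on every young array. Of all genes, 18.6% and 14.9% did so. Second probes of a gene were at times at odds with the first. Of 48 further probes of 37 genes that were well above background on all 22 arrays, 35 had the sign of the brightest probe in flox and 35 in iKO, with medians of -0.12 and -0.10. Dimmer further probes are not in this count. The second probe of Rpl11 read 0.70 and 0.83 higher with age, a second probe of Rps24 0.48 and 0.64 higher, and the second probe of Rpl22 differed by 0.16 and -0.09. The second probe of Rpl22l1, well above background on 7 of 22 arrays, differed by 0.16 and -0.10, and with the mean over both probes Rpl22l1 no longer passed (-0.22, adjusted p = 0.626 in flox; -0.35, adjusted p = 0.383 in iKO). The calls of these 4 genes therefore belong to their brightest probe. The other Rpl36a probes differed by -0.27 to -0.37 and had the sign of the first.

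Markers of other cells moved with age on the same arrays. Of 6 endothelial markers, 4 rose in flox and 3 in iKO, and their summed level was 1.19 to 1.54 and 1.05 to 1.44 in young against 2.18 to 2.55 and 2.04 to 2.30 in aged ileum. Of 8 macrophage markers 1 and 2 rose (2.93 to 3.52 and 3.22 to 3.31 against 3.44 to 3.95 and 3.53 to 3.86). Of 8 epithelial markers 2 and 3 fell (10.83 to 11.04 and 10.81 to 11.10 against 10.65 to 10.66 and 10.66 to 10.77). Of 19 markers of cycling cells 0 passed, with summed levels of 6.99 to 7.38 in young and 6.84 to 7.52 in aged ileum. Without the 2 arrays with colonic markers, 1 and 2 endothelial and 0 and 2 macrophage markers rose, and 1 and 2 epithelial markers fell. The part of these cells in the ribosomal protein result was not tested.

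Related gene groups are set beside the shares of all genes that fell (5.37% in flox and 5.57% in iKO) and rose (3.18% and 5.15%), with no test of any group against these. Of 75 mitochondrial ribosomal protein genes 12 fell in flox (16%) and 6 in iKO (8%) and 0 rose (medians -0.23 and -0.14; 8 and 11 fell without the 2 arrays with colonic markers), among them Mrps18c (-0.50 and -0.51) and Mrps16 (-0.39 and -0.34). Of 49 ribosome biogenesis factors 1 fell in flox (2.04%), Ebna1bp2 (-0.36), and 4 rose in iKO (8.16%), including Imp4 (0.53), Nol6 (0.40) and Nle1 (0.44), all of the ribosome assembly pathway; without the 2 arrays 0 and 2 passed. Of 14 genes of RNA polymerase I, which transcribes rRNA, 0 passed in flox and 2 rose in iKO (1 without the 2 arrays): Rpo1-2, its second largest subunit, by 0.55 (adjusted p = 0.0088; 0.32, adjusted p = 0.106 in flox) and Rpo1-4 by 0.46. Of 20 other genes with a TOP start, Cox7c of the respiratory chain fell in both (-0.51 and -0.56), and Naca (-0.34) and Gnb2l1, the small subunit scaffold RACK1 (-0.25), fell in iKO. Of 32 initiation factors Eif2s3x fell in flox (-0.38), and in iKO Eif4a2 fell (-0.51) while its close relative Eif4a1 rose (0.30). Of 12 elongation and termination factors 0 passed in either genotype. Of 24 regulators 2 fell in each: Max, the partner of Myc, by 0.61 and 0.44, with Mxi1 in flox (-0.46) and Mxd1 in iKO (-0.44). Of 16 Diamond-Blackfan anaemia genes, which overlap the set, 2 fell in flox and 4 in iKO. These lists were chosen with earlier results of these data known.

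Between aged colon and aged ileum, a small number of ribosomal protein mRNAs differed, in both directions. In flox mice 4 were higher and 5 lower in colon, 9 of 83 (10.8%), where 32.9% of 19800 genes were called, 19.2% as higher and 13.7% as lower. In iKO mice 2 were higher and 10 lower, 12 of 83 (14.5%), where 43.6% of all genes were called, 24.3% as higher and 19.3% as lower. The median over the set was 0.01 and -0.05, while the median of all genes was 0.08 and 0.07. Of the calls, 7 were shared, each with the same direction in both (77.8% of the first list and 58.3% of the second): Rpl6 and Rps6 were higher in colon, and Rps26, Rps27l, Rps2, Rpl29 and Rps15 lower. Both tissue comparisons share a fit and its spread per gene. Scaling to the median of the array ended the calls of Rps6 in both genotypes (adjusted p = 0.0861 and 0.161) and of Rpl6, Rpl29 and Rps15 in flox.

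Rps26, which lines the mRNA exit channel, was the most evenly lower: it read 5.77, 5.92 and 6.01 in aged flox ileum and 5.40, 5.44 and 5.46 in flox colon, and 6.02, 6.09, 5.89 and 5.93 in iKO ileum and 5.36, 5.42, 5.53 and 5.37 in iKO colon. The groups did not overlap, and colon stood at 72.4% (-0.47 ± 0.09, adjusted p = 0.00237) and 67.7% (-0.56 ± 0.08, adjusted p = 0.000155) of ileum. Rps27l read 5.65, 5.68 and 5.57 in flox colon and 5.62, 5.59, 5.61 and 5.64 in iKO colon, below the aged ileum values given above, by 0.40 ± 0.10 (adjusted p = 0.00856) and 0.68 ± 0.08 (adjusted p = 5.87e-05). Rps2, at the mRNA entry channel, differed by -0.32 and -0.35, Rps15 by -0.26 and -0.31 and Rpl29 by -0.31 and -0.39. Rpl36al (-0.35), Rpl22 (-0.27), Rpl35 (-0.22) and Rpl21 (-0.93 ± 0.22, adjusted p = 0.00487) were lower in iKO. The probe named Rpl21 has no gene symbol in the reference and read 0.96 to 2.37 over all arrays, so which transcript it reads is uncertain.

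Rpl6, a large subunit protein, had the largest difference on the higher side. It read 5.98, 6.18 and 6.26 in aged flox ileum and 6.56, 6.51 and 6.46 in flox colon, and 6.26, 6.16, 5.94 and 6.00 in iKO ileum and 6.57, 6.61, 6.65 and 6.45 in iKO colon, without overlap. The difference was 0.37 ± 0.11 (adjusted p = 0.0214) and 0.48 ± 0.09 (adjusted p = 0.00143). Rps6 read 5.71, 5.91 and 5.91 in aged flox ileum and 6.25, 6.08 and 6.14 in flox colon, and 5.86 to 6.03 in iKO ileum and 6.10 to 6.36 in iKO colon, with differences of 0.31 ± 0.10 (adjusted p = 0.029) and 0.26 ± 0.09 (adjusted p = 0.0255). In flox Rpl4 (0.29) and Rpl36a (0.28) were also called higher. Of the stalk, 0 of 3 passed in either genotype, Rplp0 being at 0.23 (adjusted p = 0.0752) and 0.17 (adjusted p = 0.103). Arbp, the older name of Rplp0, read 8.34 to 8.39 in flox and 8.36 to 8.58 in iKO colon. Its aged ileum values overlapped these in both genotypes. Rpl5 and Rpl11 differed by 0.04 and 0.04 in flox and by 0.04 and -0.07 in iKO. Rpl7l1 differed by -0.21 and -0.25, and Rpl3l by -0.74 and -0.01 with standard errors of 0.73 and 0.63.

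**Figure D5:**
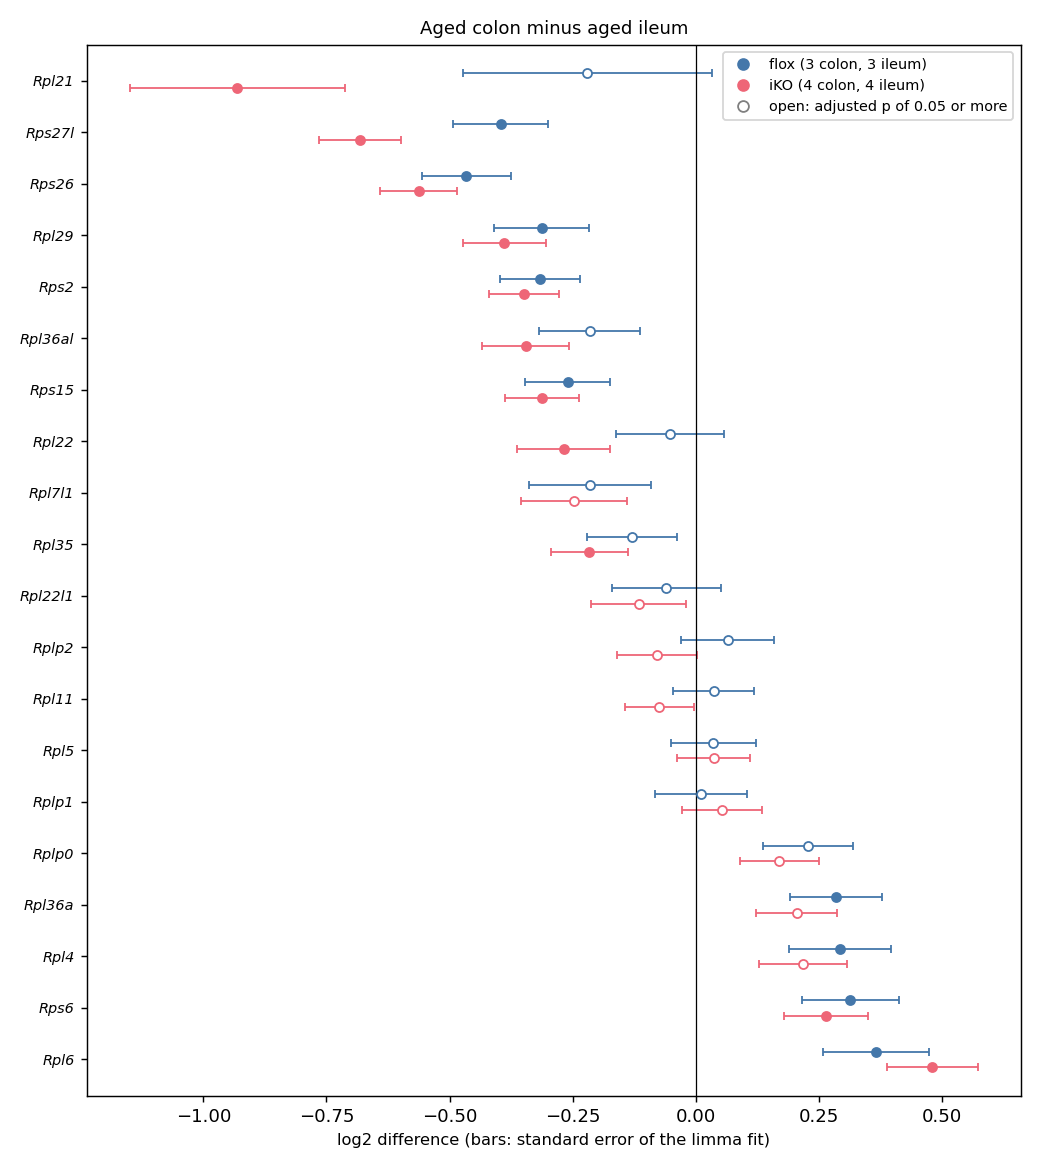
Aged colon minus aged ileum (log2 difference with its standard error) for the ribosomal protein genes named for tissue, in flox and in iKO mice; filled points passed at an adjusted p under 0.05 in limma. Rpl6 (0.37 and 0.48) and Rps6 (0.31 and 0.26) lie to the right of 0, and Rps26 (-0.47 and -0.56) and Rps27l (-0.40 and -0.68) to the left.

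Without the 2 ileum arrays that carried colonic markers, 6 members were lower and 0 higher in flox colon, and 2 were higher and 8 lower in iKO colon. In flox the calls of Rpl6 (0.29, adjusted p = 0.0847), Rps6 (0.25, adjusted p = 0.106), Rpl4 and Rpl36a were lost, and those of Rps26, Rps27l, Rps2, Rpl29 and Rps15 were kept. The share of all genes called in this setting is not given here. In it, 24 members in flox and 17 in iKO read lower on every colon array than on every aged ileum array. Of all genes, 23.0% and 21.7% did so. In the other direction this held for 16 and 7 members and for 31.9% and 27.5% of all genes. Scaling mattered here as well. Without scaling, 70 and 64 members were called and the set's median was 0.47 and 0.32, in a setting where the median of all genes moved by 0.46 and 0.37. There 55.6% and 50.4% of all genes were called higher. With quantile normalization 39 were called in flox, 37 of them higher, and 50 in iKO, 47 of them higher. Of all genes, 20.8% and 25.9% were called higher with it. The second probe of Rpl6 differed by -0.03 and -0.11, that of Rpl22 by 0.72 and 0.80, and that of Rpl21 by 0.17 and 0.01, so the calls of these genes belong to 1 probe each. Cells differed too: of 19 cycling cell markers 5 and 14 were lower in colon (summed level 6.84 to 7.52 in aged ileum and 5.90 to 6.86 in colon), and of 8 smooth muscle markers 4 and 8 were higher (7.39 to 8.04 against 8.30 to 9.07). Without the 2 arrays with colonic markers, 0 and 6 cycling cell markers were lower, and 4 and 8 smooth muscle markers were higher. The part of these cells in the result was not tested.

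Among the related groups, 4 of 14 RNA polymerase I genes (28.6%) were higher in colon and 0 lower in each genotype, where 19.2% and 24.3% of all genes were higher. They were led by the termination factor Ttf1 (0.75 and 0.72). Of all genes, 13.7% in flox and 19.3% in iKO were called lower. Of 75 mitochondrial ribosomal protein genes 6 were higher and 3 lower in flox, and 2 higher and 23 lower in iKO. Mrps6 was higher in both (1.32 and 1.27). Of 49 biogenesis factors 3 were higher and 2 lower in flox, and 3 higher and 6 lower in iKO, with Utp20 of the small subunit processome higher (1.34 and 1.25) and Bop1 lower (-0.51 and -0.49). Of 26 regulators 2 were higher and 1 lower in flox and 3 higher and 5 lower in iKO, among them the S6 kinase relative Rps6ka2 (0.95 and 1.24) and the translation repressor Eif4ebp3 (1.00 and 0.68). Of 33 initiation factors 4 were higher and 2 lower in flox, and 2 higher and 6 lower in iKO. Of 20 other TOP genes 1 was higher in flox and 2 in iKO, Pfdn5 of the prefoldin chaperone in both (0.30 and 0.37). Without the 2 arrays with colonic markers, 8 mitochondrial genes were higher and 3 lower in flox, and 4 higher and 11 lower in iKO. Biogenesis factors were then 2 and 2, and 4 and 5. Regulators were 2 and 2, and 2 and 5, and initiation factors 3 and 0, and 2 and 3. Of the other TOP genes 0 in flox and 1 in iKO were higher.

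Whether Sirt1 deletion altered the effect of age or of tissue was tested by interaction terms. For age in the ileum 0 of 82 passed (0% of 15579 genes), 0 at an unadjusted p under 0.05 (395 of all genes), and the median interaction over the set was 0.01 (-0.05 without the 2 arrays with colonic markers, with 0 passing), so the larger count of falls in iKO than in flox is not shown to be a difference between them. For tissue in aged mice 0 of 83 passed (0.0354% of 19800 genes). There the median interaction was -0.07 with 68 of 83 below 0, against -0.03 for all genes. Without the 2 arrays the median was -0.0034, with 45 of 83 below 0 and 0 passing. At an unadjusted p under 0.05 there was 1 member, Rps27l at -0.29 ± 0.13 (adjusted p = 0.82), and 1184 of all genes.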

How the data were processed

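RNA was Cy3-labelled and hybridised to Agilent whole mouse genome arrays of 1 colour, per the labels' protocols. The deposited files hold each array's scanner output from Agilent Feature Extraction 9.5, per the submitters' processing notes, with a processed signal intensity per spot. The authors' value table holds the same intensities as the scanner files (largest relative difference 0). Flags for background, saturation and outlier spots, a unit of their own (0 or 1), are also those deposited. From these, log2 of the processed signal minus that of the array's 75th percentile over spots other than controls was computed, outlier spots were left out (the Rpl37a spot of colon iKO replicate 2 among the members; limma fits that gene without it), spots of a probe were averaged and the brightest probe stood for each gene name. A gene entered a fit where some group had it well above background throughout: 15579 in the ileum (15 arrays), 19749 in colon (7) and 19800 in aged animals (14). Differences, standard errors and p-values come from limma 3.58.1 (lmFit and eBayes, R 4.3.3), adjusted by Benjamini-Hochberg over all genes of a fit, with 0.05 as threshold, over 9 comparisons. The fits were tested on simulated data. Array number limits the precision.

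The genes, the lists and the length of the pyrimidine run were chosen with earlier results of these data known, and nothing was tested on the run. Named in each comparison are the 12 largest passing differences per direction, or the 3 smallest p-values where fewer than 3 passed, the paralogs, the stalk, Rps6, Rpl5 and Rpl11, Rps4l as a gene left out, 3 genes of each related list and the 5 genes most like the set's median. Genes named for their spread or co-variation, passing genes beyond the 12, Arbp and second probes were chosen after their values were seen. Rpl10l and Rpl39l were outside the annotation used and not analysed here. The single values of some members are not reported here; they stay in the counts and medians.

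Alternatives were quantile and median scaling, normexp background, other filters, probe averaging, unsaturated probes, slide, position and replicate terms, and leaving out each array. No scaling between arrays, and leaving out the 2 aged ileum arrays with colonic markers, were added after seeing the data.

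Replicate numbers recur in the groups. The deviations of same-numbered arrays correlated above 0.1 in 14 of 21 ileum pairs (-0.36 to 0.37), 0 of 3 colon pairs (-0.11 to 0.10) and 3 of 19 aged pairs (-0.22 to 0.12). Pairing required every pair above 0.1, so the arrays were not treated as paired.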

Additional observations from a re-analysis of the deposited data

Results flagged for a closer look

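Dixon's test was run on 148 sets of 4 arrays, each a gene named by the rule, or the set's median, in a group. At its 95% value it singled out 2, where chance alone would single out about 1 in 20. Rpl4, a large subunit protein, read 4.58 on aged colon iKO replicate 2 and 4.34 to 4.36 on the other 3 arrays of that group. The probe named Rplp0 read 4.80 on young ileum flox replicate 1 and 5.05 on each of the other 3. Other members were not in this test, among them some with a wider gap. Rpl19 read 5.76 on colon iKO replicate 4 and 6.90 to 7.02 on the rest of its group. Rps12 read 7.46 on that array and 8.14 to 8.26 on the rest. Rps19 read 5.85 on young ileum iKO replicate 1 and 6.80 to 6.94 on the rest. The causes were not tested.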

How the results depend on the processing

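The number of ribosomal protein genes called in ageing depended on the processing, and the cause was not tested unless the setting itself names it. In flox (9 called) it was 1 with quantile normalization, 3 with no filter, 3 with the mean over a gene's probes, 2 with only the groups compared in the fit, 2 with slide as a fixed factor, 0 without scaling between arrays and 3 without the 2 aged ileum arrays with colonic markers, and it was 40 with median scaling, 14 with a stricter filter and 16 with trend and robust estimation. In iKO (19 called) it was 1, 3, 9 and 7 in the first 4 of these settings, 4 without scaling (all higher) and 10 without the 2 arrays. Of all genes, 13.9% were called lower in flox with median scaling, against 5.37% in the main setting. The shares with quantile normalization and without scaling are given above, and those of the other settings are not given here. For colon against ileum in flox (9 called) it was 3 with median scaling, 1 with only the groups compared and 5 with the replicate block, 39 with quantile normalization and 70 without scaling. In iKO (12 called) it was 50, 64 and 21 with quantile normalization, without scaling and with trend and robust estimation. Leaving out each array in turn gave 3 to 15 in flox ageing, 4 to 25 in iKO ageing, 4 to 9 in flox colon and 10 to 13 in iKO colon. Flox ageing fell to 3 without young flox 4 or aged flox 1 and 4 without aged flox 4, and reached 15 without young iKO 3. Ageing in iKO was 4 without young iKO 3 or aged iKO 3, 7 without aged iKO 1 or 4, 9 without young iKO 2 and 12 without aged iKO 2, and reached 25 without young iKO 1. Flox colon was 4 without colon flox 1 or 3 and 5 without colon flox 4. Genotype and interaction counts were 0 in these settings. With the replicate block the ageing counts were 10 and 18 and the tissue counts 5 and 9, the tissue calls of Rps6 ending in both genotypes, of Rpl4, Rpl36a and Rps15 in flox and of Rpl22 and Rpl35 in iKO; the arrays share only a number, and 6 of 15 ileum, 2 of 7 colon and 4 of 14 aged arrays were most like an array of their own number. Signs turned with the mean over probes for Rpl11 in ageing (0.18 in flox, 0.26 in iKO), Rps24 in flox ageing (0.025) and Rpl22 in iKO colon (0.27), and with quantile normalization for Rpl35 in iKO colon (0.044). Without scaling they turned in flox colon for Rps27l (0.068), Rps2 (0.15), Rpl29 (0.15) and Rps15 (0.20), and in iKO colon for Rps2 (0.022), Rpl36al (0.026), Rps15 (0.058), Rpl22 (0.10) and Rpl35 (0.15). Calls of Rpl22l1, Rps27l and Rpl41 in flox ageing were lost in 0 of 15 single-array omissions, those of Rps14 in 11 and Rps24 in 12. These omissions include iKO arrays, which enter this comparison only through the shared fit. In iKO ageing Rps27l was lost in 3 of 15, and Rpl22l1 and Rpl41 in 0. In flox, Rpl22l1 was also lost with only the groups compared and with quantile normalization. Rpl41 was lost with quantile normalization, Rps27l with slide as a fixed factor, and all 3 without scaling.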
